A study of Mus musculus with 17 samples.

Results

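The 10 genes Prrx1, Prrx2, Twist2, Ctsk, Thy1, Cd200, Nt5e, Eng, Nes and Pdgfrb are used as markers of mesenchymal or skeletal stem cells in mice. They were taken by name from a list of 55335 genes counted in 17 bulk RNA-seq libraries of sorted mouse bone cells, and all 10 were measured in each library. The choice used no measured value of these libraries. It was made with earlier results of the same data in view.

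Skeletal stem cells give rise to bone, cartilage and marrow stroma, and no single gene marks them. Several of the 10 genes are transcription factors of early limb and skeletal mesenchyme (Prrx1, Prrx2, Twist2). Ctsk marks a periosteal stem cell when it is used as a Cre driver, although its protein, cathepsin K, is best known as the collagenase of osteoclasts. Thy1 (CD90), Cd200, Nt5e (CD73) and Eng (CD105) encode surface proteins used to define such cells in sorts, and Nes (nestin) and Pdgfrb mark stromal cells around vessels.

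The libraries came from skeletal stromal/stem cells (SSCs) and osteoprogenitor cells (OPCs) of the bone fraction, both described as CD45-, TER119-, CD31- and CD51+. SSCs were sorted as Sca-1+ PDGFRα+ and OPCs as Sca-1- with PDGFRα present or absent. WT mice carried the normal alleles of Cxcr4 (Cxcr4+/+), +/1013 mice carried one knock-in allele with the WHIM mutation that truncates the receptor's C-terminal tail, and 1013/1013 mice carried it on both chromosomes. The allele is in the germ line, hence in every cell type, and mice were described as female littermates of 8 to 12 weeks unless stated otherwise. A library was made from a pool of 3000 cells from 3 mice. OPCs had 3 libraries of each genotype, and SSCs had 3 WT, 3 +/1013 and 2 1013/1013 libraries. P-values measure the spread between these pools.

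Between 64099849 and 92683497 counts fell on genes in an OPC library and between 44217695 and 50509592 in an SSC library. The SSC groups differed in more than genotype, since 21449 to 22599 genes were detected in WT SSCs and 15748 to 19227 in the 5 mutant SSC libraries. The share of reads on no gene was 3.68% to 4.15% in WT SSCs and 1.5% to 2.69% in mutant SSCs. Their part in the SSC genotype results below was not tested. Ly6a, the gene of Sca-1, ran from 0.472 to 10.3 FPKM (median 4.34) in OPCs and 320.1 to 1203 FPKM (median 717) in SSCs, and Pdgfra from 5.47 to 14.8 FPKM (median 10.03) and 33.9 to 52.1 FPKM (median 39), in the direction of the gates. Of a list of 7 sort and lineage genes, these were the 2 that rose in SSCs in each genotype, and Itgav (CD51) and Tfrc fell in 1013/1013 SSCs. Ptprc (CD45) reached at most 6.53 FPKM and Pecam1 (CD31) at most 5.63 FPKM in any library. Cxcr4 itself could not check the genotypes, because counts per gene do not show the mutation. It lay between 2.48 and 10.8 FPKM in OPCs, and in SSCs at 26.2 FPKM in WT replicate 3 against 0.0608 to 0.719 FPKM in the other 7 libraries.

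Levels are given as FPKM, that is counts divided by the length of a gene's exons and by the library's total, with totals scaled by the trimmed mean of M values (TMM) over all 17 libraries. FPKM can be set side by side between genes, unlike counts. In pools of cells, fewer cells that express a gene and less RNA per cell cannot be told apart. Differences are log2 fold changes from edgeR's quasi-likelihood test over all genes that passed its filter on low counts, which all 10 genes did in every fit. Coordinates are those of GENCODE M21 on mm10. Calls needed a change of 1.5-fold or more together with an adjusted p (Benjamini-Hochberg) under 0.05.

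For the genes that separated the 2 cell types most steadily, the 250 bases before a RefSeq start of transcription are shown, since they differ in composition. They were read from the RefSeq table for GRCm38.p6, the build of the files (mm10). The Prrx2 window lies inside the gene's span in GENCODE M21 (chr2:30834972-30881251, 4 annotated transcripts), so that annotation also has a start upstream of it. Capitals mark the letters CANNTG (an E-box, the letters that Twist-family factors bind) and TAATTA (a core bound by many homeodomain factors), searched on both strands. Windows are at chr1:163313651-163313900 on the minus strand for Prrx1, chr2:30845117-30845366 on the plus strand for Prrx2 and chr16:45409054-45409303 on the minus strand for Cd200.
Prrx1: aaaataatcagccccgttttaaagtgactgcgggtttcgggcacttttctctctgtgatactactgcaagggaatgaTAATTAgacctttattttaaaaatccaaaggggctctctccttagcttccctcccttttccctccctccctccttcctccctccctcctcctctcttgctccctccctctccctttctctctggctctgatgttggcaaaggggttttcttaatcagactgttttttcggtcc
Prrx2: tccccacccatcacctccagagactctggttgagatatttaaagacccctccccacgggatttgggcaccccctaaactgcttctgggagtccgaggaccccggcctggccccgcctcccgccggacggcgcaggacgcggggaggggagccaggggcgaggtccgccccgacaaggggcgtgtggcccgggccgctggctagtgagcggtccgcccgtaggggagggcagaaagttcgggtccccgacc
Cd200: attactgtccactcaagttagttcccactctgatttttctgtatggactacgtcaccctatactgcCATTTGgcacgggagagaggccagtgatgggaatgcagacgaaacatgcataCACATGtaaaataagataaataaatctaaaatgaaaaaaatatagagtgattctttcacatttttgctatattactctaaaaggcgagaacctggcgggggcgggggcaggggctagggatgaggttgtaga
The Prrx1 window holds TAATTA and no CANNTG, the Prrx2 window holds neither, and the Cd200 window holds CANNTG at 2 places. Over the longer windows of the table, from 250 bases before to 50 after the start, 8 of the 10 genes had an entry, while Thy1 and Pdgfrb had none. CANNTG was found in 4 of these 8 (Eng, Ctsk, Nt5e and Cd200) and in 72.3% of all 32851 windows, and TAATTA in 1 of 8 (Prrx1) and in 5.29% of all. GGGCGG, a GC box, was in 5 of 8 (Twist2, Prrx2, Nes, Nt5e and Cd200) against 35.7% of all, CCAAT in 1 of 8 (Twist2) against 37.4%, and TATAAA in none of the 8 against 13.6%. The GC content ran from 43.7% (Ctsk) to 71.0% (Nt5e) around a median of 61.0%, with a median of 52.7% over all windows. A match describes the letters of a window and does not show that a factor binds there.

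The 10 genes spanned more than 3 orders of magnitude in level. In OPCs the order of the medians was Ctsk, Cd200, Nt5e, Pdgfrb, Prrx2, Eng, Prrx1, Nes, Thy1 and Twist2. Ctsk, at 156 to 414 FPKM (median 202), lay above Cd200, and Cd200 above Nt5e, without overlap of the 9 libraries. From Nt5e to Eng each gene overlapped the next, and Eng and Prrx1 met at 3.33 FPKM. From Prrx1 down each gene again overlapped the next, and Twist2 reached at most 0.245 FPKM.

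In SSCs the order was Ctsk, Prrx2, Nt5e, Pdgfrb, Cd200, Prrx1, Eng, Thy1, Twist2 and Nes. Ctsk, at 191 to 370.1 FPKM (median 267), stood above all other genes. Prrx2, Nt5e, Pdgfrb and Cd200 overlapped each its next neighbour, with medians from 56.2 down to 26.7 FPKM. Cd200 lay above Prrx1, and Eng above Thy1, without overlap, while Prrx1 and Eng overlapped. By these medians over all genotypes, Prrx2 stood in place 5 in OPCs and 2 in SSCs, and Cd200 in place 2 and 5. In WT mice alone Prrx2 was in place 4 in both cell types, and Cd200 again in place 2 and 5. With the length of the longest transcript in place of all exons, Nt5e came before Prrx2 and Cd200 before Pdgfrb in SSCs.

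**Figure D1:**
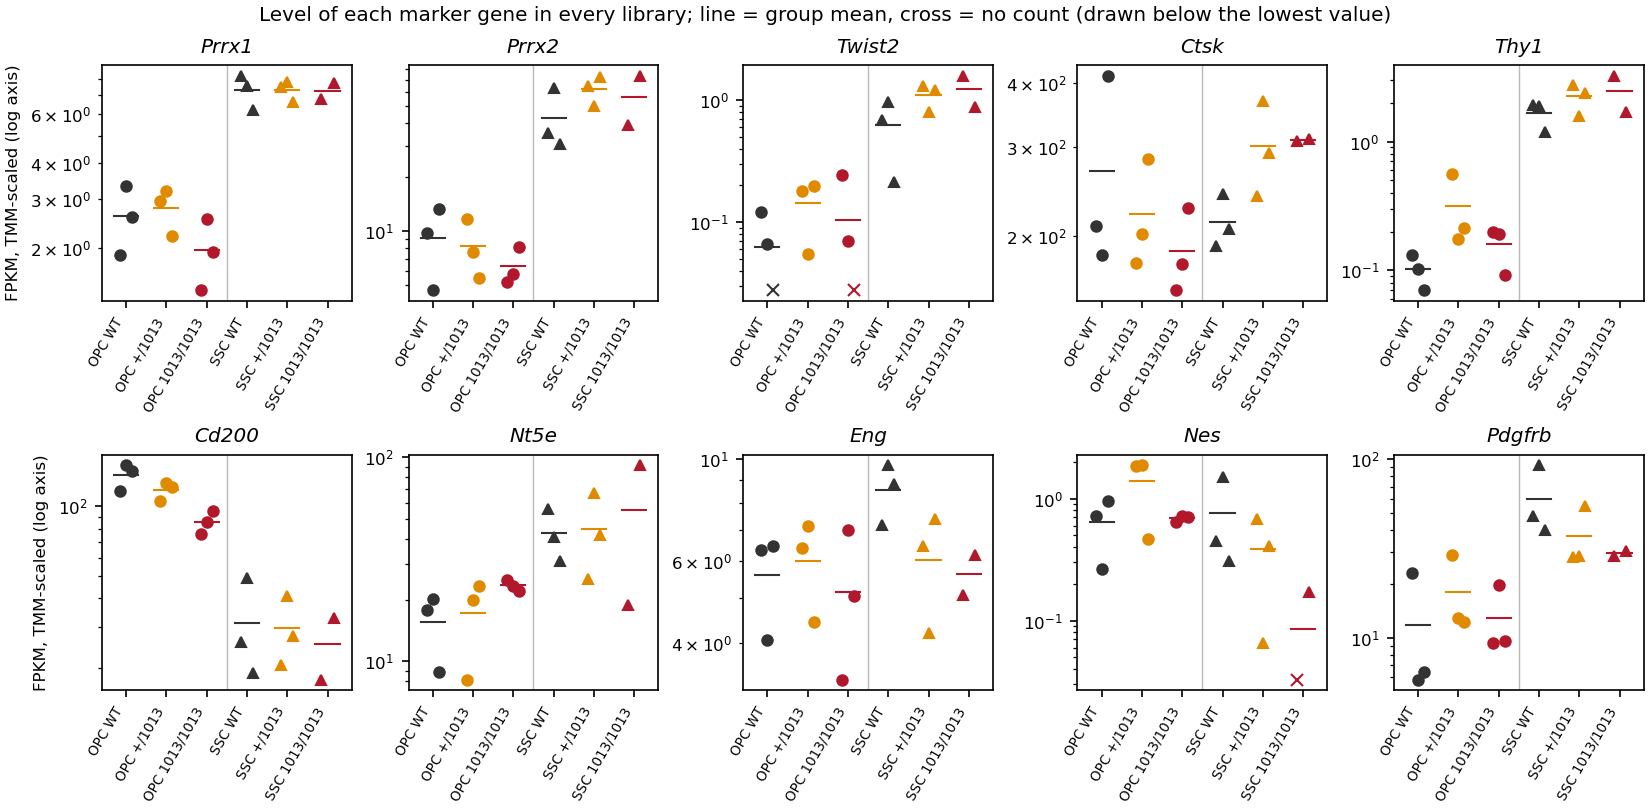
FPKM (log axis, scaled for each gene) of the 10 marker genes in each of the 17 libraries, as circles for OPCs and triangles for SSCs, with the group mean as a line and a cross for a library without a count. Prrx1, Prrx2 and Thy1 are higher and Cd200 is lower in all 8 SSC libraries than in all 9 OPC libraries, and Nes has no count in 1 SSC library of 1013/1013 mice.

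The first question was which of these markers separated the sorted SSCs from the more differentiated OPCs. Prrx1, Prrx2 and Thy1 were higher, and Cd200 was lower, in SSCs than in OPCs of each genotype, by 2.63- to 3.70-fold for Prrx1, 4.67- to 8.84-fold for Prrx2, 7.07- to 16.3-fold for Thy1 and 3.40- to 4.38-fold for Cd200. In these 4 genes the 9 OPC and 8 SSC libraries did not overlap, against 14.2% of the 12989 genes whose mean reached 1 CPM (the share of counts, scaled as in FPKM but not by length). Pdgfrb was called in WT mice, and Ctsk and Eng were not called in any genotype. The call rule marked 5 of 10 markers in WT mice (4 higher, 1 lower) against a background of 11.4% of 20238 genes (5.55% higher and 5.86% lower). It marked 4 in +/1013 mice (3 higher, 1 lower) against 12.5% (6.44% higher and 6.02% lower), and 4 in 1013/1013 mice (3 higher, 1 lower) against 13.1% (6.94% higher and 6.12% lower). Within a genotype the libraries of the cell types did not overlap for 8, 6 and 8 of the 10, where the backgrounds were 43.6%, 44.6% and 49.3% of genes. DESeq2 called 7, 4 and 6 of the 10 in WT, +/1013 and 1013/1013 mice, against 18.9%, 21.2% and 23.6% of all genes.

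**Figure D2:**
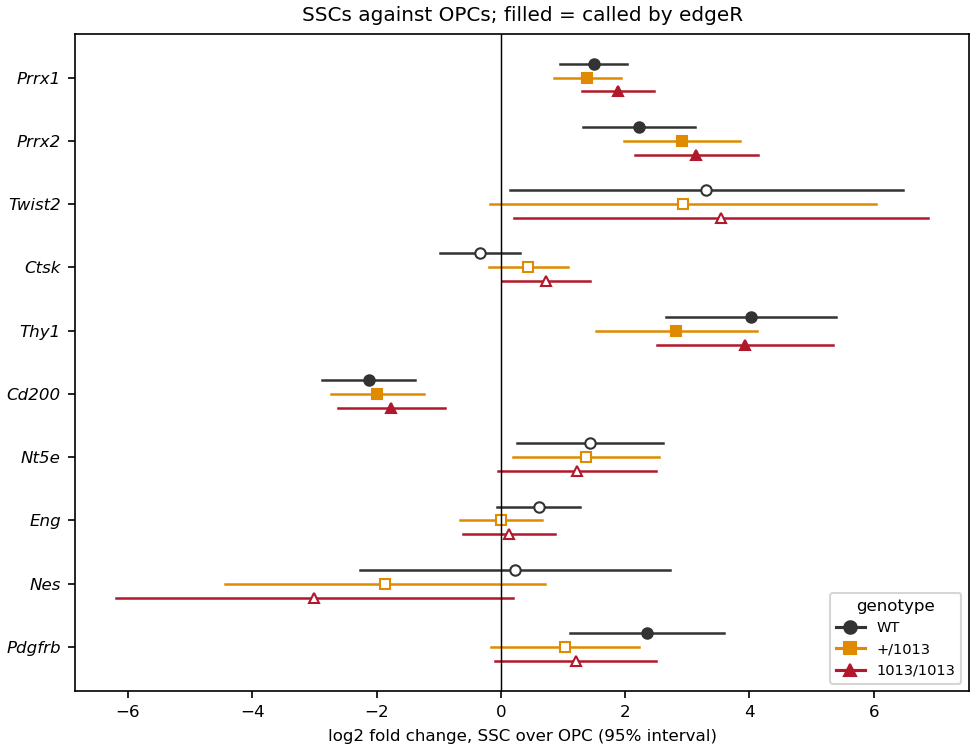
Log2 fold change of SSCs over OPCs (x axis, points with 95% intervals) for each marker in WT (circles), +/1013 (squares) and 1013/1013 mice (triangles), filled where edgeR called the gene. Prrx1, Prrx2 and Thy1 lie to the right of 0 and Cd200 to the left in each genotype, while the intervals of Ctsk, Eng and Nes are near or across 0. Those of Twist2, Nt5e and Pdgfrb cross 0 in some genotypes but not in WT.

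Of the transcription factors, Prrx1 (ENSMUSG00000026586.16, chr1:163245119-163313710) is a homeodomain protein of the limb bud and of adult bone and fat progenitors. It measured 1.89, 3.33 and 2.58 FPKM in WT OPCs, 2.93, 3.2 and 2.21 in +/1013 OPCs and 1.42, 2.54 and 1.93 in 1013/1013 OPCs. In SSCs it measured 8.18, 7.55 and 6.19 FPKM in WT, 7.51, 7.78 and 6.6 in +/1013 and 6.8 and 7.7 in 1013/1013 mice. The lowest SSC library was above the highest OPC library, and the 8 SSC libraries lay within 1.32-fold of each other. The log2 fold change of SSCs over OPCs was 1.49 ± 0.25 (SE) in WT (edgeR, adjusted p = 0.00194), 1.39 ± 0.25 in +/1013 (adjusted p = 0.0024) and 1.89 ± 0.27 in 1013/1013 mice (adjusted p = 0.000596).

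Prrx2 (ENSMUSG00000039476.13, chr2:30834972-30881251) is the paralog of Prrx1 and acts beside it in the skull and limb. Prrx2 measured 9.7, 4.67 and 13.2 FPKM in WT OPCs, 11.7, 7.66 and 5.47 in +/1013 OPCs and 5.21, 5.79 and 8.1 in 1013/1013 OPCs. In SSCs the values were 35.5, 62.7 and 30.6 in WT, 64.6, 49.7 and 72.5 in +/1013 and 39 and 73.5 in 1013/1013 mice. Every SSC library was higher than every OPC library, and both cell types spread more than they did in Prrx1. SSCs exceeded OPCs by 2.22 ± 0.42 on the log2 scale in WT (edgeR, adjusted p = 0.00416), 2.91 ± 0.43 in +/1013 (adjusted p = 0.000616) and 3.14 ± 0.46 in 1013/1013 mice (adjusted p = 0.000657). Prrx2 was above Prrx1 in each of the 17 libraries per length of exon.

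Twist2 (ENSMUSG00000007805.4, chr1:91801461-91848028), a basic helix-loop-helix factor that restrains osteoblast maturation, was low. It had 0 to 56 counts in an OPC library, with 0 in WT replicate 3 and 1013/1013 replicate 3, and 43 to 273 counts in an SSC library. At that depth a count of 0 allows up to 0.0461 CPM in that WT library and 0.0450 CPM in that 1013/1013 library. These floors use totals without TMM scaling and cover counting error only. The levels of SSCs ran from 0.214 to 1.58 FPKM (median 0.927), and those of OPCs from 0 to 0.245 FPKM (median 0.0697), overlapping in SSC WT replicate 3. Its log2 fold change of 3.3 ± 1.47 in WT did not pass (edgeR, adjusted p = 0.169), nor did those of 2.93 ± 1.45 in +/1013 (adjusted p = 0.206) and 3.54 ± 1.55 in 1013/1013 mice (adjusted p = 0.152). Both DESeq2 (adjusted p = 0.0298 in WT and 0.0291 in 1013/1013 mice) and the bias-adjusted version of edgeR's test called it. An antisense gene, Gm29100, overlaps an exon of Twist2 (0 to 19 counts), and the libraries were not stranded.

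Ctsk (ENSMUSG00000028111.4, chr3:95499256-95509362) was the most abundant of the 10 and did not separate the cell types. Its levels were 209, 183 and 414 FPKM in WT OPCs, 177, 202 and 284 in +/1013 OPCs and 156, 177 and 228 in 1013/1013 OPCs. SSCs had 191, 242 and 206 FPKM in WT, 240.0, 370.1 and 292 in +/1013 and 308 and 311 in 1013/1013 mice. The ranges of the 2 cell types overlapped, and in 1013/1013 mice both SSC libraries lay above the 3 OPC libraries, in a comparison where 49.3% of genes did not overlap. Ctsk had log2 fold changes of -0.34 ± 0.30 in WT, 0.44 ± 0.30 in +/1013 and 0.73 ± 0.33 in 1013/1013 mice, with adjusted p from 0.164 to 0.51 (edgeR). The 95% intervals were -0.97 to 0.30 in WT and 0.02 to 1.43 in 1013/1013 mice. Without WT OPC replicate 3, the highest library, the WT value was 0.13.

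Osteoclasts also express Ctsk, so a list of 10 other osteoclast genes was summed per library. The sum was 179 FPKM in WT OPC replicate 3, where Ctsk was highest, and 17.7 to 60.03 FPKM in 7 of the other 8 OPC libraries. It was highest, at 345 FPKM, in 1013/1013 OPC replicate 2, where Ctsk stood at 177 FPKM near the OPC median. In SSCs the sum was 17.3 to 69.9 FPKM, of which Dcstamp, Ocstamp and Oscar had no count in either 1013/1013 library. The part of osteoclast RNA in the Ctsk level was not tested.

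**Figure D3:**
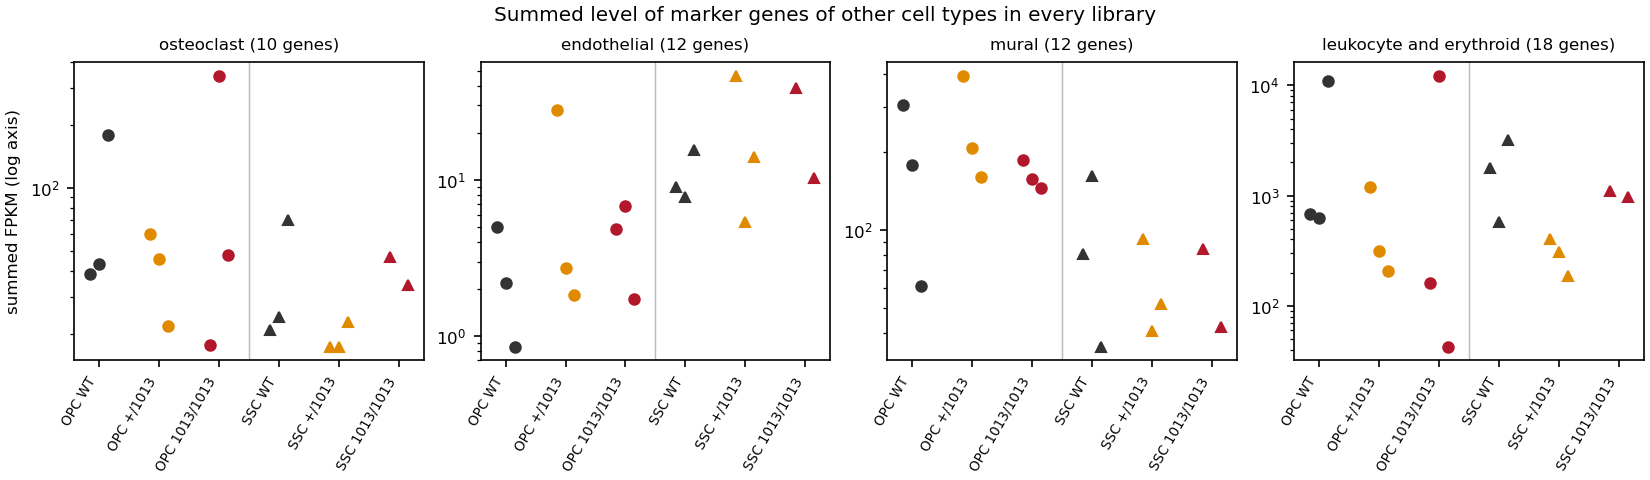
Summed FPKM (log axis) of marker genes of osteoclasts, endothelium, mural cells and of leukocytes and erythroid cells in each library, with circles for OPCs and triangles for SSCs. WT OPC replicate 3 and 1013/1013 OPC replicate 2 stand above the other OPC libraries in the first and the last list, and mural markers are highest in +/1013 OPC replicate 1.

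Among the surface proteins, Thy1 (ENSMUSG00000032011.5, chr9:44043384-44048579), a GPI-anchored glycoprotein of fibroblasts and T cells, was low in OPCs. It measured 0.132, 0.103 and 0.0699 FPKM in WT, 0.559, 0.175 and 0.213 in +/1013 and 0.199, 0.19 and 0.0915 in 1013/1013 OPCs, from 10 to 109 counts. In SSCs it measured 1.92, 1.9 and 1.19 FPKM in WT, 2.77, 1.58 and 2.37 in +/1013 and 3.23 and 1.68 in 1013/1013 mice. The lowest SSC library, WT replicate 3, was more than 2-fold above the highest OPC library, +/1013 replicate 1. On the log2 scale Thy1 was higher by 4.03 ± 0.64 in WT (edgeR, adjusted p = 0.00133), 2.82 ± 0.60 in +/1013 (adjusted p = 0.00759) and 3.93 ± 0.66 in 1013/1013 mice (adjusted p = 0.00174). With the 2 groups alone in the fit the 1013/1013 value was not called (adjusted p = 0.0787).

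Cd200 (ENSMUSG00000022661.14, chr16:45382135-45409053), a membrane glycoprotein that restrains myeloid cells through its receptor, was the one marker that edgeR called lower in SSCs. It measured 116, 151 and 143 FPKM in WT, 105, 127 and 121 in +/1013 and 76.2, 85.3 and 95.8 in 1013/1013 OPCs. SSCs had 25.9, 48.7 and 19 FPKM in WT, 20.5, 40.8 and 27.4 in +/1013 and 17.8 and 32.8 in 1013/1013 mice. The lowest OPC library was above the highest SSC library, and replicate 2 was the highest SSC library of each genotype. The log2 fold change of SSCs over OPCs was -2.13 ± 0.35 in WT (edgeR, adjusted p = 0.00169), -1.99 ± 0.35 in +/1013 (adjusted p = 0.00201) and -1.76 ± 0.40 in 1013/1013 mice (adjusted p = 0.0113). The last call was lost without SSC 1013/1013 replicate 1 (adjusted p = 0.140) and with the 2 groups alone in the fit (adjusted p = 0.0706).

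Nt5e (ENSMUSG00000032420.8, chr9:88327197-88372092), the enzyme that turns extracellular AMP into adenosine, ran from 8.15 to 25.2 FPKM (median 20.3) in OPCs and 18.8 to 91.5 FPKM (median 41.1) in SSCs. The SSC values were 55.8, 40.5 and 31.1 FPKM in WT, 25.3, 66.6 and 41.8 in +/1013 and 18.8 and 91.5 in 1013/1013 mice. The 1013/1013 replicates differed 4.86-fold, and the lower one lay within the OPC range. Its log2 fold change was 1.44 ± 0.55 in WT, 1.37 ± 0.55 in +/1013 and 1.23 ± 0.59 in 1013/1013 mice, and it was not called (edgeR, adjusted p from 0.109 to 0.19). DESeq2 called it in WT mice (adjusted p = 0.0405). Without SSC 1013/1013 replicate 2 the 1013/1013 value turned to -0.28.

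Eng (ENSMUSG00000026814.16, chr2:32646595-32682669), a coreceptor of the TGF-β family, differed little between the cell types. It ran from 3.33 to 7.16 FPKM (median 6.33) in OPCs and 4.19 to 9.68 FPKM (median 6.84) in SSCs, and the ranges overlapped. WT SSCs (7.2, 9.68 and 8.83 FPKM) lay above WT OPCs (6.33, 4.05 and 6.47 FPKM), which was also so for 43.6% of genes in 1 direction or the other. For Eng the log2 fold change was 0.61 ± 0.31 in WT, 0.00 ± 0.31 in +/1013 and 0.13 ± 0.34 in 1013/1013 mice (edgeR, adjusted p from 0.225 to 1.00). The last 2 values changed sign when single libraries were left out. Endothelial cells also express Eng, and the sum of 12 endothelial markers was highest in +/1013 SSC replicate 1 (46.5 FPKM), where Eng was at 6.49 FPKM, and lay at 7.76 FPKM in WT SSC replicate 2, where Eng was highest. The part of endothelial RNA in the Eng level was not tested. Exons of Fpgs lie opposite to Eng exons, with 591 to 1906 counts for Fpgs, and without strand the reads of the shared stretch cannot be told apart.

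Of the perivascular markers, Pdgfrb (ENSMUSG00000024620.11) on chromosome 18, the receptor of PDGF-B and PDGF-D, was higher in WT SSCs. It measured 22.9, 5.84 and 6.46 FPKM in WT, 29.1, 13 and 12.2 in +/1013 and 9.37, 19.8 and 9.58 in 1013/1013 OPCs. In SSCs it measured 47.9, 92.2 and 40.0 FPKM in WT, 28.3, 28.7 and 54.4 in +/1013 and 28.8 and 30.6 in 1013/1013 mice. WT replicate 2 was the highest SSC library, and the 2 cell types met in +/1013 mice, where 1 OPC library was above 2 SSC libraries. The log2 fold change was 2.35 ± 0.58 in WT (edgeR, 5.11-fold, adjusted p = 0.0174), and 1.04 ± 0.55 (adjusted p = 0.24) and 1.2 ± 0.60 (adjusted p = 0.207) in +/1013 and 1013/1013 mice. The WT call was lost without OPC WT replicate 2 (adjusted p = 0.0704), without OPC WT replicate 3 (adjusted p = 0.0674), without SSC WT replicate 2 (adjusted p = 0.0714) and with the 2 groups alone in the fit (adjusted p = 0.0531). The difference from WT of the SSC over OPC effect was -1.32 ± 0.78 in +/1013 (edgeR, adjusted p = 0.588) and -1.15 ± 0.83 in 1013/1013 mice (adjusted p = 0.529), so the genotypes were not shown to differ.

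A list of 12 other mural cell markers was summed beside Pdgfrb, which pericytes also express. In OPCs the sum was highest in WT replicate 1 (304 FPKM) and +/1013 replicate 1 (395 FPKM), the highest 2 libraries for Pdgfrb, and ran from 61.1 to 208 FPKM in the other 7. In SSCs the sum was highest in WT replicate 2 (162 FPKM), the highest library for Pdgfrb too, and ran from 35.4 to 92.5 FPKM in the other 7. The part of mural cells in the Pdgfrb level was not tested. Of the 12 mural markers none rose in SSCs of any genotype, where 5.55%, 6.44% and 6.94% of all genes rose in WT, +/1013 and 1013/1013 mice. There were 2 that fell in WT (Des, Mcam), 6 in +/1013 (among them Acta2, Cspg4, Des and Notch3) and 2 in 1013/1013 mice (Acta2, Cspg4). Of all genes 5.86%, 6.02% and 6.12% fell.

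Nes (ENSMUSG00000004891.16, chr3:87971078-87980451), an intermediate filament of neural progenitors and of perivascular stroma, was low in both cell types. It measured 0.72, 0.263 and 0.953 FPKM in WT, 1.85, 1.87 and 0.468 in +/1013 and 0.64, 0.722 and 0.703 in 1013/1013 OPCs. In SSCs it measured 0.451, 1.51 and 0.306 FPKM in WT, 0.676, 0.0657 and 0.411 in +/1013 and 0 and 0.171 in 1013/1013 mice. In 1013/1013 mice both SSC libraries lay below the 3 OPC libraries, and elsewhere the cell types overlapped. Nes had log2 fold changes of 0.23 ± 1.16 in WT, -1.86 ± 1.2 in +/1013 and -3.0 ± 1.48 in 1013/1013 mice, none of them called by edgeR (adjusted p from 0.201 to 0.937). DESeq2 called the last one (adjusted p = 0.0421). SSC 1013/1013 replicate 1 had 0 of 44217695 counts on Nes, which allows up to 0.0678 CPM of the total without TMM scaling. That library had the fewest genes detected.

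The second question was whether the 1013 allele changed the markers within a cell type. In OPCs, edgeR called 0 of the 10 in +/1013 against WT (background 0% of 16207 genes), 0 in 1013/1013 against WT (0.00617%) and 0 in 1013/1013 against +/1013 mice (0%). DESeq2 also called 0 markers in each, against 0.358%, 0.259% and 0.364% of genes. At an unadjusted p under 0.05 (edgeR) the counts were 0, 1 and 1, the 1 being Cd200. Of all 16207 genes, 331, 548 and 513 were under that threshold. The 95% intervals leave room for changes, since they lay within 2-fold either way for 3, 1 and 2 of the 10 genes.

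Cd200 was lower in OPCs of 1013/1013 mice than in those of both other genotypes, without overlap, a pattern seen in 7.38% of genes against WT and 7% against +/1013 mice. Its mean was 137 ± 18 FPKM (SD, n = 3) in WT, 118 ± 11.2 in +/1013 and 85.8 ± 9.8 in 1013/1013 OPCs. The log2 fold change of 1013/1013 over WT was -0.68 ± 0.19, or 1.6-fold lower, and it failed the correction (edgeR, unadjusted p = 0.00702, adjusted p = 1.00). Against +/1013 it was -0.45 ± 0.19 (edgeR, unadjusted p = 0.0439, adjusted p = 0.999). Each of the 3 libraries of 1013/1013 OPCs lay below each of the 6 others.

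Nt5e was the other gene with a split against WT. The 3 1013/1013 OPC libraries (25.2, 23.4 and 22.1 FPKM) were above the WT ones (17.8, 20.3 and 8.89 FPKM), with a log2 fold change of 0.58 ± 0.41 (edgeR, unadjusted p = 0.195). Thy1 was higher in the 3 +/1013 than in the 3 WT OPC libraries at counts of 109, 27 and 45 against 29, 19 and 10, with a log2 fold change of 1.62 ± 0.81 (edgeR, unadjusted p = 0.0779), where 4.81% of genes did not overlap. None of these differences passed the test. The summed leukocyte and erythroid markers stood at 11053 FPKM in WT OPC replicate 3, the lowest WT library for Nt5e. They stood at 12212 FPKM in 1013/1013 OPC replicate 2, and from 42.6 to 1195 FPKM in the other OPC libraries. Their part in the OPC genotype results was not tested. The log2 fold changes of the 10 genes ran from -0.29 (Ctsk) to 1.62 (Thy1) in +/1013 and from -0.68 (Cd200) to 0.74 (Twist2) in 1013/1013 OPCs against WT (the Twist2 value changed sign without OPC 1013/1013 replicate 1), with medians of 0.11 and -0.02 beside all-gene medians of -0.0042 and 0.01.

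In SSCs, edgeR called 0 of the 10 in +/1013 against WT (background 0.0736% of 17659 genes), 0 in 1013/1013 against WT (0%) and 0 in 1013/1013 against +/1013 mice (0%). DESeq2 called 0 markers in each as well, against 7.37%, 9.67% and 0.957% of genes. At an unadjusted p under 0.05 (edgeR) the counts were 0, 1 (Ctsk) and 0 of the 10. Of all 17659 genes, 3061, 3224 and 977 were under that threshold. The log2 fold changes ran from -0.99 (Nes) to 0.81 (Twist2) in +/1013 and from -3.15 (Nes) to 1.01 (Twist2) in 1013/1013 SSCs. Their medians were 0.02 and 0.19, beside -0.11 and -0.23 over all genes. Prrx1 was the one marker whose intervals lay within 1.5-fold in each SSC comparison, at -0.40 to 0.36 in +/1013 and -0.42 to 0.42 in 1013/1013 against WT.

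**Figure D4:**
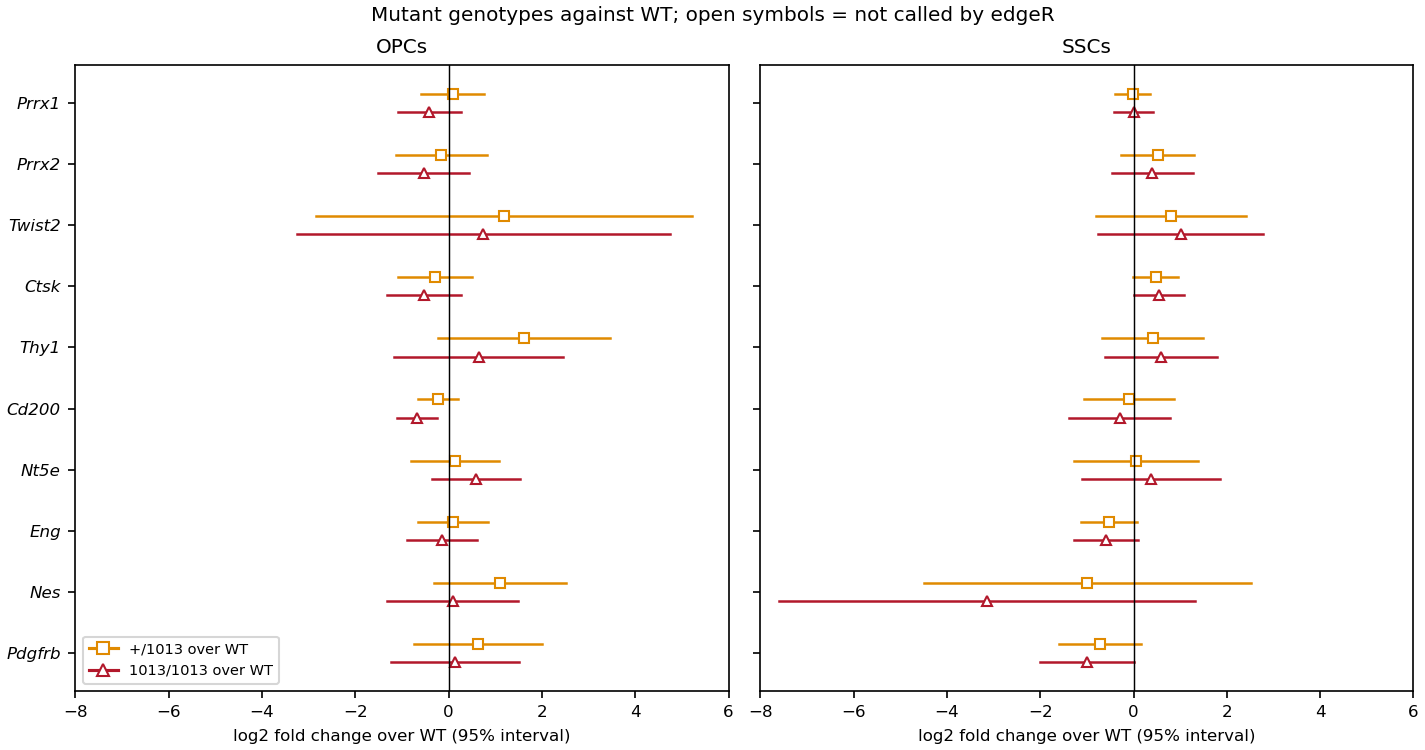
Log2 fold change of +/1013 (squares) and 1013/1013 (triangles) over WT with 95% intervals, in OPCs on the left and SSCs on the right. All symbols are open, since edgeR called none, and the interval of Cd200 in 1013/1013 OPCs and that of Ctsk in 1013/1013 SSCs do not reach 0.

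No marker was without overlap between +/1013 and WT SSCs (background 34.3%) or between 1013/1013 and +/1013 SSCs (17.2%). Ctsk, Eng, Nes and Pdgfrb did not overlap between 1013/1013 and WT SSCs, which was so for 41.5% of all genes in these 2 groups of 2 and 3 libraries. Ctsk averaged 213 ± 26.1 FPKM (SD, n = 3) in WT, 301 ± 65.5 in +/1013 and 309 ± 1.84 (n = 2) in 1013/1013 SSCs. The 2 1013/1013 libraries were above the 3 WT ones, with log2 fold changes of 0.55 ± 0.23 in 1013/1013 (edgeR, unadjusted p = 0.0448, adjusted p = 0.266) and 0.48 ± 0.21 in +/1013 against WT (adjusted p = 0.292). Pdgfrb averaged 60.01 ± 28.1 FPKM in WT, 37.1 ± 14.9 in +/1013 and 29.7 ± 1.27 in 1013/1013 SSCs. Its log2 fold change was -1.0 ± 0.43 in 1013/1013 (edgeR, adjusted p = 0.276) and -0.71 ± 0.38 in +/1013 mice (adjusted p = 0.382). In the same comparisons 8 and 10 of 12 mural markers were at negative values (medians -0.73 and -0.72 in 1013/1013 and +/1013 mice). So were 16 and 17 of the 17 leukocyte and erythroid genes tested (medians -0.99 and -4.43). None of either list was called, and the medians over all genes were -0.23 and -0.11. At an unadjusted p under 0.05 (edgeR) were 2 and 2 of the mural and 0 and 9 of the leukocyte and erythroid genes. Of all 17659 genes, 3224 and 3061 were under that threshold. The part of mural, leukocyte and erythroid RNA in the marker values was not tested.

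Eng averaged 8.57 ± 1.26 FPKM in WT, 6.02 ± 1.65 in +/1013 and 5.64 ± 0.788 in 1013/1013 SSCs, with log2 fold changes of -0.60 ± 0.29 (edgeR, adjusted p = 0.319) and -0.53 ± 0.26 (adjusted p = 0.34) for 1013/1013 and +/1013. Nes averaged 0.755 ± 0.656 FPKM in WT against 0.0856 ± 0.121 in 1013/1013 SSCs, with a log2 fold change of -3.15 ± 1.92 (edgeR, adjusted p = 0.395). Without 1013/1013 replicate 2, the lone other library at 0 counts left Nes as the 1 marker called (edgeR, adjusted p = 0.0415, with the lone library taken to vary like the other groups), and its fitted fold is then no bound. The same fit called 14.8% of all genes, and the difference of effects without that library, where Nes was again the 1 marker called, 8.73%. Both +/1013 and 1013/1013 were compared with the same 3 WT libraries, so their shared direction in Ctsk, Eng and Pdgfrb is not a repeat.

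The difference of the genotype effect between SSCs and OPCs was tested in a fit of all 17 libraries. It was called for 0 of the 10 markers in +/1013 (background 0.084% of 20238 genes) and 0 in 1013/1013 mice (0.153%) by edgeR. DESeq2 also called 0 markers in each, against 2.16% and 5.64% of genes. At an unadjusted p under 0.05 (edgeR) were 2153 and 3037 of the 20238 genes, and 0 and 1 of the markers. The 1 was Ctsk, whose log2 fold change in 1013/1013 against WT was -0.53 in OPCs and 0.55 in SSCs, a difference of 1.06 ± 0.44 (edgeR, unadjusted p = 0.0311, adjusted p = 0.297). For Cd200 the difference was 0.37 ± 0.50, with a 95% interval of -0.71 to 1.45. The change of Cd200 in 1013/1013 OPCs, itself not called, was therefore not shown to differ from that in SSCs.

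Across the libraries of a cell type the markers did not move as 1 group. Twist2 and Thy1 had a Pearson correlation of log2 CPM, with 0.5 added to each CPM, of 0.67 over the 9 OPC and 0.90 over the 8 SSC libraries. In OPCs Twist2 was at 0 to 0.777 CPM and Thy1 at 0.209 to 1.68 CPM, so the added 0.5 weighs on the OPC value. It also weighs on the values of Nes in SSCs, with 0 CPM in 1013/1013 replicate 1. In SSCs Eng and Nes (0.81), Eng and Pdgfrb (0.78) and Nes and Pdgfrb (0.73) also went together, while Ctsk and Eng went opposite ways (-0.75). In OPCs Thy1 and Pdgfrb (0.72) were highest and Prrx2 and Nt5e (-0.84) lowest. The points share genotype, depth and the sorted fraction, and these values are a description.

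For each marker, 7956 genes in OPCs and 8128 in SSCs with a mean of at least 10 CPM were searched. Those whose log2 CPM, again with 0.5 added, followed the marker most closely are named. In OPCs they were Lepr (0.96) and Angptl1 (0.94) for Pdgfrb, Prcp (0.98) and Lum (0.94) for Ctsk, Thbs1 and Col6a3 (both 0.97) for Nt5e, Gucy1a1 and Ube2r2 (both 0.94) for Prrx1, and Tnfrsf19 and Pld3 (both 0.93) for Prrx2. Med13 (0.94) and Pik3r1 (0.93) came first for Twist2, Prrc2c and Smpd4 (both 0.92) for Thy1, Stub1 and Mcat (both 0.93) for Cd200, Wdfy2 (0.97) and Zeb2 (0.94) for Eng, and Brd9 (0.87) and Arl8a (0.85) for Nes. In SSCs the nearest were Nbl1 (0.99) for Prrx2, Ldlrad4 (0.91) for Prrx1, Gm23935 (0.99) for Twist2, Twistnb (0.98) for Ctsk, Adprhl2 (0.97) for Thy1, Angptl2 (0.94) for Cd200, Dnajb12 (0.98) for Nt5e, Hs6st1 (0.99) for Eng, Urgcp (0.97) for Nes and Tenm3 (0.98) for Pdgfrb. No marker had the same nearest gene in both cell types. These points too share genotype and depth, and the values describe 8 or 9 libraries. Each is the highest or next highest of 7956 or 8128 correlations, and so is high by selection. How high unrelated genes would reach in such a search was not tested.

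The partners of the markers, 44 ligands, receptors, enzymes and related factors, were read in the same comparisons of SSCs with OPCs. In WT mice 2 of 44 rose (Pdgfra and Vim) and 6 fell (among them Ctsf, Ctsh, Pdgfa and Tgfb1), in +/1013 mice 10 rose (among them Cst3, Ctsb, Ctsl and Vim) and 3 fell (Pdgfa, Pdgfd and Tgfb1), and in 1013/1013 mice 10 rose and 5 fell. Of all genes 5.55% rose and 5.86% fell in WT, 6.44% and 6.02% in +/1013, and 6.94% and 6.12% in 1013/1013 mice. The medians of the list were 0.26, 0.53 and 0.06, beside 0.17, 0.00 and -0.20 over all genes tested. No partner was called between genotypes within a cell type. In the difference of effects between the cell types 1 of 44, Ctsl, was called for 1013/1013 mice, against 0.153% of all genes.

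Beside Pdgfrb, its partner receptor Pdgfra rose in each genotype, with log2 fold changes of 1.85, 1.94 and 2.36 in WT, +/1013 and 1013/1013 mice, but the gates chose on it. The ligands Pdgfa and Pdgfd fell in SSCs of each genotype, Pdgfd with log2 fold changes of -3.09, -2.26 and -2.72 (edgeR, adjusted p = 0.000165, 0.000975 and 0.00108). Beside Eng, the ligand Tgfb1 fell in each genotype (-1.56, -2.46 and -2.41). Tgfb3, named after its values were seen, rose in +/1013 (1.4) and 1013/1013 mice (1.75). Beside Nes, the filament gene Vim rose in each genotype (0.94, 1.71 and 1.46).

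Beside Ctsk, the lysosomal proteases Ctsb and Ctsl and their inhibitor Cst3 rose in +/1013 and 1013/1013 mice and were not called in WT mice. Ctsl had log2 fold changes of 0.25, 1.65 and 2.3 in WT, +/1013 and 1013/1013 mice, and its difference between the genotype effects was 2.05 ± 0.32 in 1013/1013 mice (edgeR, adjusted p = 0.023). That call held in 10 of 19 alternatives, and over all 19 the log2 values ran from 1.94 to 2.24. It was lost in 9, at edgeR adjusted p up to 0.132. It was lost with no filter on low counts and with only the 4 groups in the fit. It was also lost without OPC WT replicate 3, OPC 1013/1013 replicate 1 or 2, any 1 SSC WT replicate, or SSC 1013/1013 replicate 1. Of the adenosine pathway around Nt5e, Entpd2, an enzyme that acts on extracellular ATP and was named after its values were seen, rose in +/1013 (2.43) and 1013/1013 mice (3.51). Cd200r1, the receptor of Cd200, was not called in any genotype.

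Of 40 other genes used as skeletal stem or stromal cell markers, some of them also in the lists above, 39 passed the filter. In WT mice 8 rose in SSCs and 3 fell (Cd63, Mcam and Mme). In +/1013 mice 9 rose and 4 fell (Acta2, Cspg4, Fgfr3 and Mcam). In 1013/1013 mice 10 rose and 5 fell (Acta2, Cspg4, Fgfr3, Itgav and Snai2). The shares of all genes were those given for the partners (5.55% and 5.86% in WT mice). Of the 39, 17 in WT, 16 in +/1013 and 16 in 1013/1013 mice had negative values. Lepr, Ly6a, Msx1, Pdgfra, Pi16 and Pthlh, named for being called in all 3 genotypes, rose in each. The gates chose on Ly6a and Pdgfra. No gene of the list was called lower in all 3 genotypes. The log2 fold changes in WT were 2.18 for Lepr, 3.37 for the homeobox gene Msx1 and 4.19 for Pthlh. The leptin receptor gene Lepr marks marrow stroma, and Pthlh, the gene of PTHrP, marks resting chondrocytes. The medians of the list were 0.38, 0.36 and 0.29 in WT, +/1013 and 1013/1013 mice, beside 0.17, 0.00 and -0.20 over all genes. The 10 markers had medians of 1.46, 1.21 and 1.21 in the same comparisons.

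The osteoblast list ran the other way. In SSCs 12 of 12 genes fell in WT, 11 in +/1013 and 9 in 1013/1013 mice, against 5.86%, 6.02% and 6.12% of all genes. Among them were Col1a1, Col1a2, Ibsp and Spp1 in WT mice. Of the 10 markers, Cd200 was the one edgeR called in the same direction, and DESeq2 also called Nes lower in SSCs of 1013/1013 mice. The share of Col1a1 and Col1a2 in all counts was 16.1% to 38.7% in OPCs and 0.563% to 2.78% in SSCs. With library totals taken without these 2 genes, the medians of SSCs and OPCs were 8.67 against 3.08 FPKM for Prrx1, 65.0 against 9.08 for Prrx2, 2.62 against 0.221 for Thy1 and 33.4 against 144 for Cd200, in the same direction as with TMM. In the lists of other cell types, no osteoclast gene rose and 2 of 10 fell in +/1013 SSCs (Calcr and Mmp9), against 6.02% of all genes. In 1013/1013 SSCs 1 of 12 endothelial genes rose (Tek), against 6.94% of all genes. None of 18 leukocyte and erythroid genes was called in any genotype. The summed level of the last list ran from 42.6 to 12212 FPKM in OPCs and from 186 to 3226 FPKM in SSCs.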

How the data were processed

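RNA of sorted cells was amplified with the SMART-Seq v4 kit, which does not mark strand, from 400 to 1000 pg of RNA with 12 PCR cycles. Per the study's methods, the authors removed reads under 50 bases, aligned the rest with STAR to mm10 and made gene counts with HTSeq. The submitters' processing notes also name FastQC and DESeq2. Versions, the counting mode and the annotation release are not given in the sources used here. The deposited files hold raw counts per gene, not normalized. Counting rows that name no gene were left out of library totals, and the share of reads on no gene was 1.15% to 4.15%. Gene identifiers were matched without version to GENCODE M21, on the same build, for 55154 of 55335 genes (54587 with the same version), and the 181 others were kept by identifier.

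Counts were tested with edgeR 4.0.16 (filterByExpr, TMM, quasi-likelihood fit and F-test with the legacy setting) in R 4.3.3 with limma 3.58.1. Genotypes were compared in a fit of the 9 OPC or the 8 SSC libraries, and cell types, and the difference of genotype effects between them, in a fit of all 17. Intervals are 95%. Levels are FPKM over the union of annotated exons, with TMM library sizes. No libraries of a group were near-identical. Two-sided tests were used throughout. Each floor for a count of 0 is 3 counts of a library's total, without the TMM scaling used for levels. It covers counting error only, because reads carried no molecular identifiers. The test scripts were checked on simulated counts, with the same dispersion for all genes and no library that stood apart from its group. The check allowed DESeq2 a larger share of false calls than edgeR.

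The 10 members, the gene lists and the tests were chosen with earlier results of these data known. The text names the members, called genes of each list, the sort markers, Cxcr4, and the genes nearest to each member, of which the first is given for SSCs. Where more than 4 genes of a list were called in 1 direction, it mostly names the 4 of highest level. Some counts name no genes, as for the partners and osteoblast genes in 1013/1013 mice. The other stem cell markers were not chosen by level. For other genes the text says where they were chosen after their values were seen. Alternatives were DESeq2 1.42.0, its size factors, edgeR without the legacy setting, no filter or at least 10 counts in every library, no fold threshold, fewer or more libraries in the fit, the replicate number as a block, each library left out, and for levels TPM, totals without Col1a1 and Col1a2 and, added after the data were seen, the longest transcript. Same-numbered libraries deviated together between OPC WT and +/1013 (lowest correlation 0.18, 6 of 6 libraries nearest to their own number) and between OPC +/1013 and 1013/1013 (0.14, 6 of 6). They did not between OPC WT and 1013/1013 (-0.50, 2 of 6) or SSC WT and +/1013 (-0.25, 0 of 6). OPC WT and SSC WT lay between (lowest 0.10, highest 0.41, 4 of 6), and SSC +/1013 and 1013/1013 had 0.16 and 0.19. Of 15 pairs of groups, 3 had every correlation over 0.1.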

Additional observations from a re-analysis of the deposited data

How the results depend on the processing

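Prrx1 and Prrx2 were called higher in SSCs than in OPCs of each genotype under every alternative run, and Thy1 higher and Cd200 lower under every alternative in WT and +/1013 mice. With only the 2 groups compared in the fit, 2 members were called in 1013/1013 mice in place of 4. Leaving out 1 library at a time, 4 to 5 members were called in WT, 4 in +/1013 and 3 to 5 in 1013/1013 mice, and 0 to 1 in SSC 1013/1013 against WT and in its difference from OPCs, where the 1 was Nes without SSC 1013/1013 replicate 2, in fits that called 2931 (14.8%) and 1960 (8.73%) of all genes. The other 6 comparisons of genotypes gave 0 throughout. Of 30 member differences between the cell types 5 changed sign under at least 1 alternative, of 60 between genotypes 29, and of 20 differences of effects 8. Prrx1 in SSC 1013/1013 against WT (0.0012) did so in 9 of 14. Leaving out 1 library gave -0.54 to 0.13 for Ctsk and -0.77 to 0.64 for Nes in WT, -0.18 to 0.21 for Eng in +/1013, and -0.28 to 1.96 for Nt5e and -0.078 to 0.43 for Eng in 1013/1013 mice. Eng in +/1013 mice was -0.049 with DESeq2, -0.049 with its size factors and -0.00923 with a minimum of 10 counts in each library, and Nes in WT mice was -0.066 with the replicate number as a block. The block changed no call of a member. The cause of these changes was not tested.

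Counts over all genes depended on the test. Between the cell types edgeR called 2308, 2521 and 2642 genes in WT, +/1013 and 1013/1013 mice, DESeq2 called 3833, 4282 and 4772, and the 1013/1013 count was 511 with only its 2 groups in the fit. For SSC 1013/1013 against WT edgeR called 0 genes, 54 at a minimum of 10 counts in each library, 212 in a fit of all 17 libraries and 2931 without SSC 1013/1013 replicate 2, and DESeq2 called 1708. For SSC +/1013 against WT these were 13 by edgeR, 0 to 145 under its other settings and 1302 by DESeq2. In OPCs edgeR called 0 to 2 genes for each pair of genotypes and DESeq2 42 to 59. The differences of effects had 17 (0 to 17) genes in +/1013 and 31 (0 to 59) in 1013/1013 mice by edgeR with all libraries, 1960 in 1013/1013 mice without SSC 1013/1013 replicate 2, and 437 and 1142 by DESeq2. For SSC 1013/1013 against +/1013 edgeR called 0 genes, 1812 without that library and 2 in a fit of all 17 libraries, and DESeq2 called 169. Raw counts in OPC libraries ran from 0 to 56 for Twist2 and from 10 to 109 for Thy1.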
